A study of Mus musculus with 96 samples.

Results

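The 44 genes described here encode proteins of the lysosome, subunits of the vacuolar proton pump (V-ATPase) and factors of autophagy. They were taken by name, from a list drawn up with earlier results of these data known, and all 44 were among the 23481 genes of the deposited count table. By role, 19 were hydrolases and lumenal proteins, 5 were lysosomal membrane proteins, 6 were V-ATPase V0 subunits, 8 were V1 subunits, 2 were V-ATPase accessory proteins and 4 were autophagy genes. The table held 96 libraries of macrophages grown with MCSF from bone marrow of male C57BL/6 mice aged 8 weeks, in 12 groups of 8 wells, 4 wells on each of 2 plates. In 11 groups the cells were pretreated for 30 min and lysed 4 h after lipopolysaccharide (LPS), a bacterial product that macrophages sense. The pretreatments, as labelled, were tBHQ, Torin, Halofuginone, BrefA, Tunicamycin, Dexa, pGE2, Caspase-1, Baflo, ZVAD and the vehicle DMSO. The remaining group, NoStim, got no LPS, and its vehicle is not stated. No compound was given without LPS, and the labels state no dose. Torin is an inhibitor of the mTOR kinase and tBHQ is an activator of the NRF2 stress response. The labels do not say which wells came from separate mice or cultures, so p-values measure the spread between wells, which may be technical. If wells of 1 group with the same letter on both plates share a lysate, which the labels do not settle, each group has 4 independent wells in place of 8. Calls lost with same-named wells summed are given beside the results.

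Lysosomes break down material that cells engulf or deliver by autophagy, and in macrophages they digest microbes and dead cells. The V-ATPase acidifies them. Its cytosolic V1 part hydrolyses ATP and its membrane V0 part carries the protons. Many of these genes share a promoter element, named CLEAR, that is bound by TFEB, TFE3 and MITF. The kinase mTORC1, which sits on the lysosome surface when nutrients are plentiful, keeps TFEB and TFE3 out of the nucleus.

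RefSeq promoter windows (build GRCm38.p6, the assembly also called mm10, from 250 bases before to 50 bases after the start) were available for 36 of the 44 genes, as 40 windows. The palindromic CLEAR core TCACGTGA stood in 7 of the 40 windows (17.5%), against 0.974% of all 32851 windows of that length, searched on both strands. The shorter E-box CACGTG, which lies inside the CLEAR core, stood in 12 of the 40 windows (30.0%), against 7.15% of all windows. The antioxidant response element core TGACNNNGC stood in 9 windows (22.5%), against 12.4%. The AP-1 motif TGAGTCA stood in 3 windows (7.5%), against 5.2%. These matches are descriptions of letters in a window, and whether a factor bound there was not measured. As many of these genes are known to share CLEAR, its share in this list is no separate result. The 7 genes with the CLEAR core were Ctsa, Ctsd, Gla, Atp6v0d1, Atp6v0e, Atp6v1a and Mcoln1. The windows of the 6 that had enough counts to be tested are shown, 5′ to 3′, because all 6 were among the genes that rose in tBHQ wells. That choice was made after their values were seen, and in Torin wells 2 of the 6 rose. Capitals mark the CLEAR core.
Ctsd, which encodes the aspartic protease cathepsin D (chr7:142387778-142388077, minus strand, 1 core starting 99 bases before the start): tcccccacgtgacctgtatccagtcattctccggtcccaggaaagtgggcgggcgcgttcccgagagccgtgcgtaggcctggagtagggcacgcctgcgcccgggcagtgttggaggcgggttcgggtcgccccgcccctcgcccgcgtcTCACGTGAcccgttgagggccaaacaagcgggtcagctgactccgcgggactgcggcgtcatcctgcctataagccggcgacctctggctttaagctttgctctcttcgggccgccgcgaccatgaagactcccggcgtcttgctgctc
Ctsa, which encodes the protective protein cathepsin A (chr2:164833523-164833822, plus strand, 2 cores, the first starting 13 bases before the start): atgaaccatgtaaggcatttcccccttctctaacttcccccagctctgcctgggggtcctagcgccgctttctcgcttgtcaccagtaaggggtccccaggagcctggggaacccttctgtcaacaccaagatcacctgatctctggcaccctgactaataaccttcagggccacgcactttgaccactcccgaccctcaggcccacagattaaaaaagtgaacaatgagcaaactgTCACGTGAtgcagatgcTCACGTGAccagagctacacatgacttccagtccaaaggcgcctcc
Gla, which encodes alpha-galactosidase A (chrX:134600956-134601255, minus strand, 2 cores, the first starting 228 bases before the start): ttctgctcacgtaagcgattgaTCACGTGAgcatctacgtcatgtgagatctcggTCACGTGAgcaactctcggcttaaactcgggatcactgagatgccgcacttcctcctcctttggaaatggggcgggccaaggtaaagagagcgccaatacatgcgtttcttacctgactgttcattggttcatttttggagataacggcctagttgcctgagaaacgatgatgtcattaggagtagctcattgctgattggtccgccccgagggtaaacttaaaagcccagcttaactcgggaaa
Atp6v0d1, which encodes a V0 subunit (chr8:105566015-105566314, minus strand, 1 core starting 4 bases before the start): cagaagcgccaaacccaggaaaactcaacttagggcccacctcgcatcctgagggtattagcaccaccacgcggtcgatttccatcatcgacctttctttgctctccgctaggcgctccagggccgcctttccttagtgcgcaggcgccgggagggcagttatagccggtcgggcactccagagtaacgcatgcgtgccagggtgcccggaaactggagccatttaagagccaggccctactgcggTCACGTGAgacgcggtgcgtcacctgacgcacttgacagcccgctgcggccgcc
Atp6v0e, which encodes a V0 subunit (chr17:26676146-26676445, plus strand, 1 core starting 2 bases after the start): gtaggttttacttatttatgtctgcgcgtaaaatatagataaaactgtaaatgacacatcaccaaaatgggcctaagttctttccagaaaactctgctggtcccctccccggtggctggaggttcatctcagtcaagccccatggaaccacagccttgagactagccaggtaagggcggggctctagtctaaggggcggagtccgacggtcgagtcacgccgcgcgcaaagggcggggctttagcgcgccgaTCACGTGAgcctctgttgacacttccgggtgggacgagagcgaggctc
Atp6v1a, which encodes the catalytic V1 subunit (chr16:44139210-44139509, minus strand, 1 core starting 132 bases before the start): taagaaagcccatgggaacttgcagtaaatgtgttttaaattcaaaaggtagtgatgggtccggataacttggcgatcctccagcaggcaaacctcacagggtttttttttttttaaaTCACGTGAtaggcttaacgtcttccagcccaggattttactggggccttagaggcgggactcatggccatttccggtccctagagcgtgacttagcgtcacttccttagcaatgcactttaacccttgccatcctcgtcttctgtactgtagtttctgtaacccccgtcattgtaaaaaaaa

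Of the 44 genes, 41 passed the filter on low counts and were tested with 4963 genes in all. Mcoln1 (a lysosomal calcium channel), Atp6v1h (a V1 subunit) and Wipi1 (a phagophore protein) did not pass it. Totals per library ranged from 80196 to 379198 counts with a median of 257984.5, so 3 counts, the limit that a count of 0 allows, came to 11.4 CPM in a median DMSO library and 45.4 CPM in a median Halofuginone library. CPM here are counts per 1e+06 of a library size scaled by TMM. Markers of macrophages, with 8 of 9 listed genes in the table, summed to 1439 to 4290 CPM per well. Summed markers of neutrophils, B cells, T cells, fibroblasts, erythroid cells and mast cells reached at most 57.65 CPM in any well, and those of dendritic cells at most 58.71 CPM. In bulk wells fewer cells of a type and less RNA per cell cannot be told apart.

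On the TMM scale the 44 genes together had their highest median in tBHQ wells and their lowest in Halofuginone wells. As a share of all counts the median was 2.071% in NoStim wells and 2.027% in tBHQ wells. Their summed level had a median of 17280 CPM in tBHQ wells (14890 to 19320), 15110 CPM in Torin wells (13910 to 16220), 10540 CPM in Halofuginone wells (8348 to 11750), 13970 CPM in DMSO wells (13310 to 14620) and 16990 CPM in NoStim wells (14050 to 17760). The tBHQ wells therefore lay above all DMSO wells and overlapped NoStim wells, and the Halofuginone wells lay below all DMSO wells. In the remaining compound groups the median lay between 13080 CPM in Dexa wells and 15420 CPM in Caspase-1 wells. The V1 subunits followed another order, with medians of 2841 CPM in Torin wells (2774 to 3192), 2217 CPM in BrefA wells (1814 to 2488), 2125 CPM in tBHQ wells (1865 to 2597) and 1736 CPM in DMSO wells (1555 to 1848). Torin wells lay above all tBHQ wells and all DMSO wells in that sum. The V0 subunits did not follow the V1 subunits in Torin wells, with a summed median of 550.4 CPM in Torin wells (472.7 to 659.6), 932.1 CPM in tBHQ wells (725.1 to 996.1) and 550.1 CPM in DMSO wells (495.2 to 693.7). A sum is carried mostly by its most counted genes. Atp6v1a made up most of the V1 sum in Torin, BrefA, tBHQ and DMSO wells. Gene by gene, the V1 subunits had a median log2 fold change, Torin over tBHQ, of -0.227.

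Across the means of the 12 groups, hydrolase genes moved most alike among the classes, with a median Pearson r of 0.667 over 171 pairs. The median was 0.336 over 105 pairs of V-ATPase genes and 0.509 over 285 pairs of a hydrolase and a V-ATPase gene. Over the 6 pairs of membrane protein genes it was -0.254 and over the 3 pairs of autophagy genes -0.366. Sqstm1 had the lowest median r with the other tested genes, -0.459. These are descriptions over 12 points that share libraries, depth and scaling. No median over pairs of all tested genes was computed beside them.

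**Figure D1:**
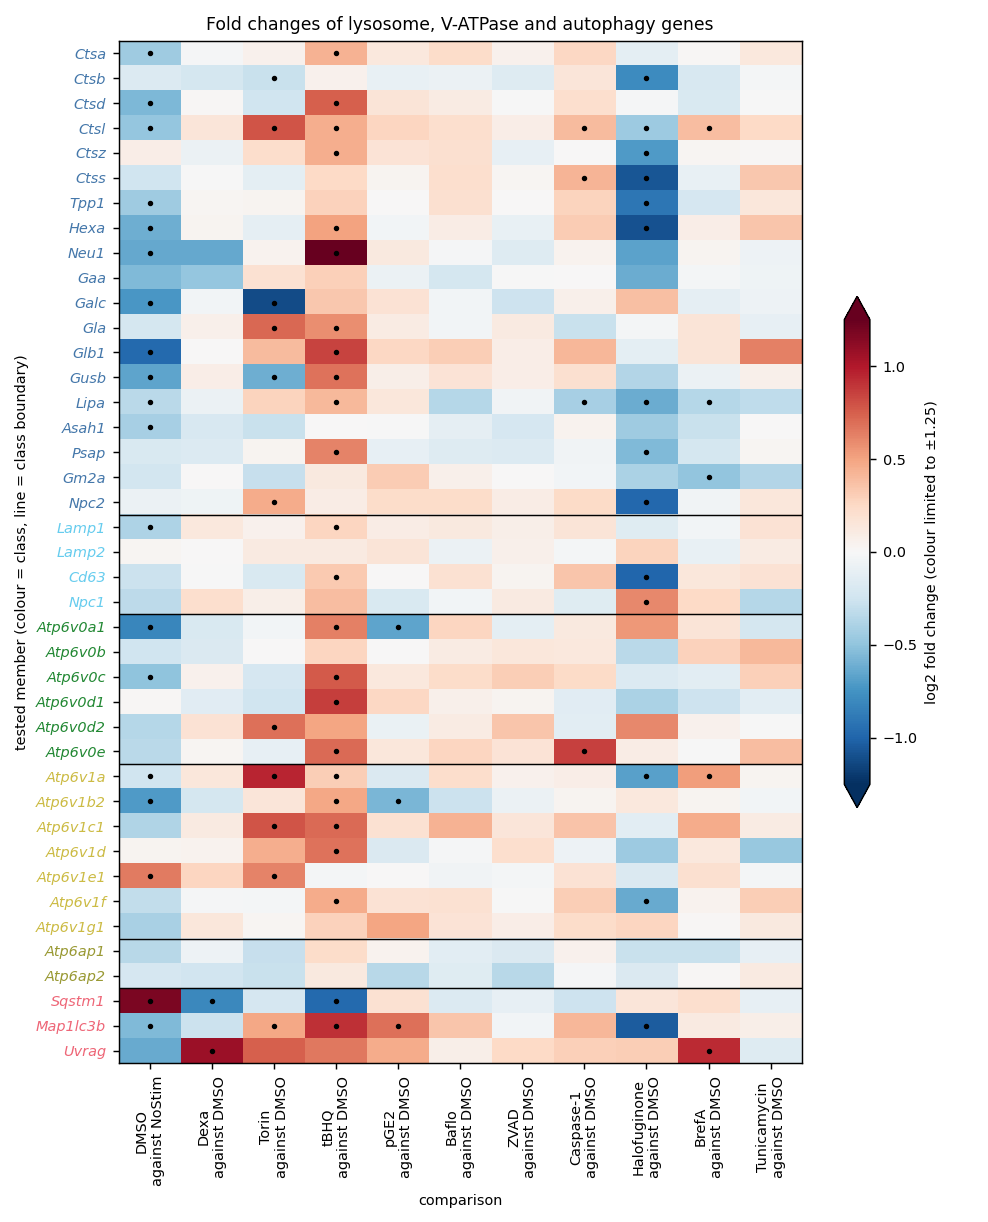
Log2 fold change (colour) of the 41 tested genes (down, by class) in 11 comparisons (across); black points mark adjusted p under 0.05. The tBHQ column holds 23 higher and 1 lower call, the DMSO against NoStim column 2 higher and 17 lower.

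Setting DMSO wells (with LPS) against NoStim wells asks what LPS did to these genes. All NoStim wells had the letters A to D and all DMSO wells E to H on both plates, so LPS and well position cannot be told apart. Most hydrolase genes were lower with LPS, and Sqstm1, whose product p62 carries ubiquitinated cargo into autophagosomes, was the most raised. Of the 41 genes, 2 rose and 17 fell at adjusted p under 0.05, where 19.5% of all tested genes rose and 16.6% fell. The median log2 fold change was -0.35 over the 41 genes and -0.04 over all genes tested, and 35 of the 41 lay below the median of all genes. Fold changes rest on the scaling. With RLE scaling in place of TMM the median of all genes moved to -0.19 and higher genes made up 38.4% of all calls, against 54.1% with TMM. Relative to the median of all genes, the 41 genes had a median of -0.32 under both scalings, and 2 genes rose and 30 fell with RLE. Over all genes tested 778 rose and 1248 fell with RLE, against 968 and 822 with TMM.

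Among the hydrolases, 0 of 19 rose and 11 fell with LPS. Glb1, beta-galactosidase, had a lowest, median and highest level of 11.1, 23.5 and 46.4 CPM in DMSO wells, against 31.7, 56.9 and 65.9 CPM in NoStim wells. In 7 of 8 DMSO wells it was below every NoStim well, and its log2 fold change was -0.97 ± 0.30 (SE; edgeR adjusted p = 0.00663). Gusb, beta-glucuronidase, was at 124, 161 and 181 CPM in DMSO wells, against 151, 271 and 291 CPM in NoStim wells. The groups overlapped, with a log2 fold change of -0.66 ± 0.15 (adjusted p = 9.02e-05). Galc, galactosylceramidase, fell by 0.73 ± 0.29 (adjusted p = 0.0401) and Neu1, a sialidase, fell by 0.64 ± 0.25 (adjusted p = 0.0369) on the log2 scale. The other 7 that fell were Ctsa, Ctsd, Ctsl, Tpp1, Hexa, Lipa and Asah1. Ctsd, singled out after its values were seen because its groups did not overlap, was at 1078, 1188 and 1360 CPM in DMSO wells, against 1462, 1855 and 2035 CPM in NoStim wells (log2 fold change -0.56 ± 0.10, adjusted p = 3.12e-07).

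Of the 4 tested membrane protein genes, Lamp1, a main glycoprotein of the lysosome membrane, was the 1 that fell. It was at 261, 365 and 411 CPM in DMSO wells, against 381, 471 and 546 CPM in NoStim wells. In 6 of 8 DMSO wells it was below every NoStim well (log2 fold change -0.39 ± 0.11, adjusted p = 0.00259). In the V-ATPase the subunits split with LPS. Of the V0 subunits 0 of 6 rose and 2 fell, of the V1 subunits 1 of 7 rose and 2 fell, and neither accessory gene passed. Atp6v0a1, the subunit that lines the proton path, was at 37.3, 59.8 and 108 CPM in DMSO wells, against 84.6, 109 and 143 CPM in NoStim wells (log2 fold change -0.82 ± 0.20, adjusted p = 0.000294). Atp6v1b2, a V1 subunit of the ATP-hydrolysing ring, was at 59.6, 88.1 and 107 CPM in DMSO wells, against 118, 137 and 193 CPM in NoStim wells. No DMSO well reached the NoStim wells (log2 fold change -0.71 ± 0.17, adjusted p = 0.000348). Atp6v0c, the proteolipid of the rotor ring, fell by 0.50 ± 0.14 and Atp6v1a by 0.25 ± 0.10 on the log2 scale (adjusted p = 0.00268 and 0.0448). Atp6v1e1, of the stalk that joins V1 to V0, rose instead, at 108, 133 and 209 CPM in DMSO wells, against 48.9, 92.9 and 114 CPM in NoStim wells (log2 fold change 0.65 ± 0.16, adjusted p = 0.000622). In 7 of 8 DMSO wells it exceeded every NoStim well.

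The autophagy genes went in opposite directions with LPS. Sqstm1 was at 808, 1209 and 1327 CPM in DMSO wells, against 361, 462 and 868 CPM in NoStim wells. In 7 of 8 DMSO wells it exceeded every NoStim well (log2 fold change 1.17 ± 0.16, adjusted p = 4.82e-10). Map1lc3b, which encodes the LC3B protein that coats autophagosome membranes, was at 75.4, 103 and 130 CPM in DMSO wells, against 106, 156 and 186 CPM in NoStim wells (log2 fold change -0.56 ± 0.16, adjusted p = 0.00341). Uvrag, of a lipid kinase complex in autophagy, had a log2 fold change of -0.63 ± 0.33 (adjusted p = 0.133). Wells of DMSO and NoStim did not overlap for 2 of the 41 genes, both below, against 12.5% of all tested genes in either direction. The calls of Galc, Neu1 and Atp6v1a were lost when 1 of several well letters was left out and when same-named wells were summed, while those of Atp6v0a1, Atp6v1b2 and Sqstm1 were made on each plate alone. Fewer genes passed on plate 2 alone, 4 in all.

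**Figure D2:**
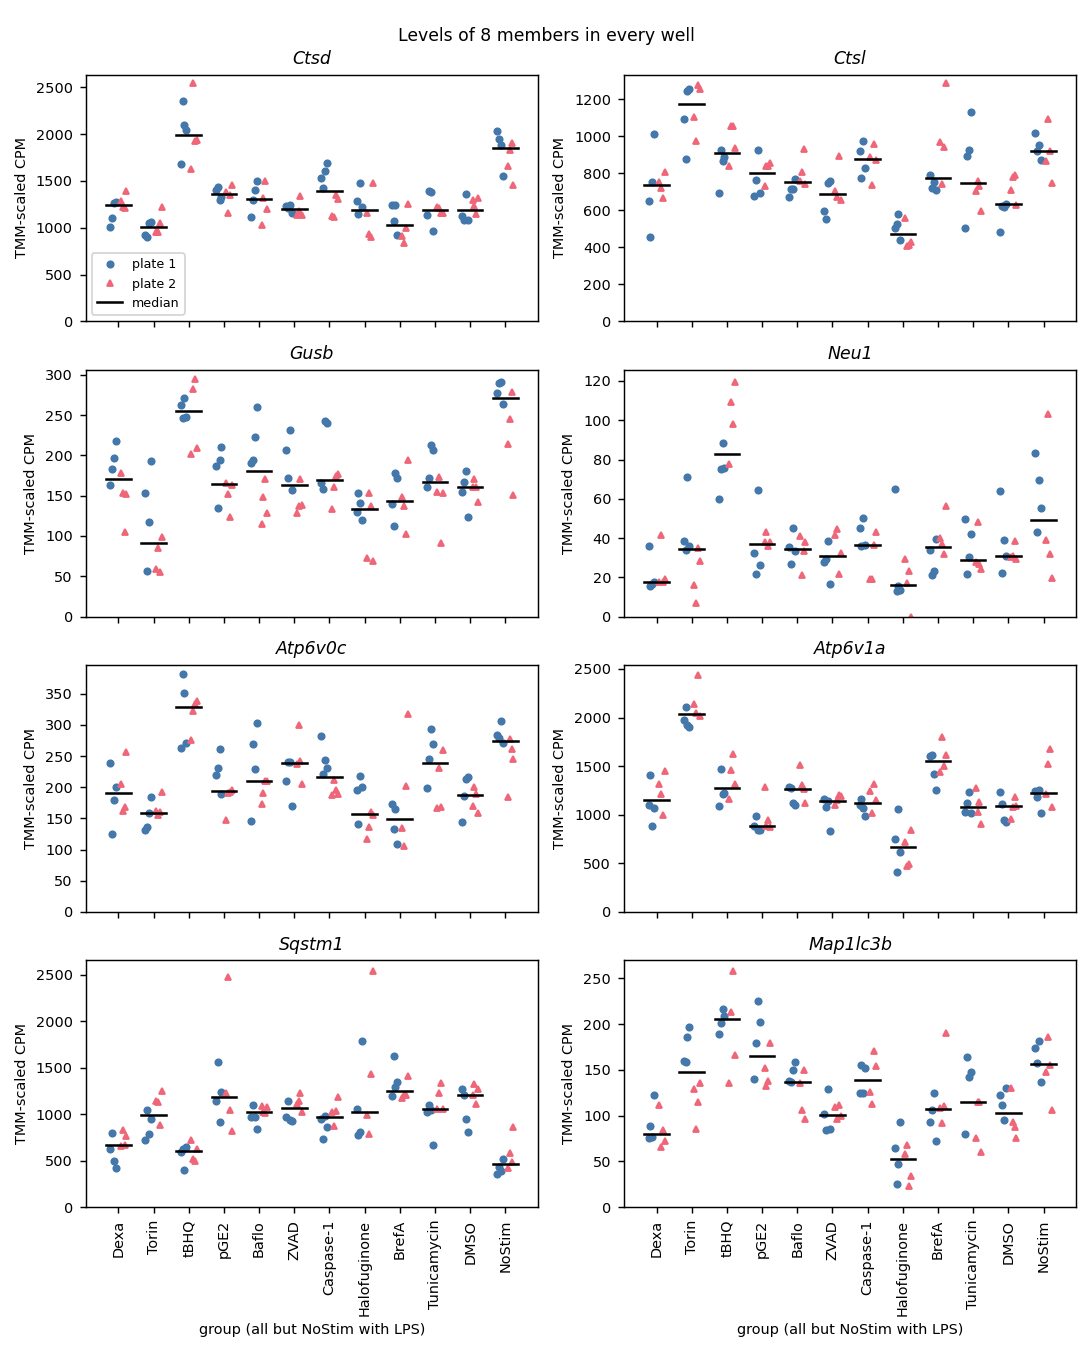
TMM-scaled CPM (vertical, from 0) of 8 genes in every well of the 12 groups (across), with plate 1 as circles, plate 2 as triangles and the group median as a line. Atp6v1a stands highest in Torin wells (median 2033 CPM), Ctsd in tBHQ wells (median 1995 CPM) and Sqstm1 lowest in NoStim wells (median 461.5 CPM).

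With tBHQ before LPS, genes of every class but the accessory genes were higher than with DMSO before LPS, and Sqstm1 was lower. In all 23 of the 41 genes rose and 1 fell, where 17.3% of all tested genes rose and 19.1% fell. The median log2 fold change was 0.43, against 0.04 over all genes tested, and 38 of the 41 lay above the median of all genes. With RLE scaling the median of all genes moved to 0.19 and higher genes made up 61.9% of all calls, against 47.5% with TMM. Relative to the median of all genes, the 41 genes had a median of 0.39 with TMM and 0.40 with RLE, and 28 rose and 1 fell with RLE. Over all genes tested 1242 rose and 766 fell with RLE, against 858 and 949 with TMM. Wells did not overlap for 5 genes above and 1 below, against 12.2% of all tested genes in either direction.

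Among the hydrolases 11 of 19 rose in tBHQ wells and 0 fell. Neu1 was at 59.8, 82.9 and 120 CPM in tBHQ wells, against 22.2, 31.0 and 63.9 CPM in DMSO wells. In 7 of 8 tBHQ wells it exceeded every DMSO well (log2 fold change 1.32 ± 0.24, adjusted p = 2.13e-06). Ctsd was at 1633, 1995 and 2552 CPM in tBHQ wells, against 1078, 1188 and 1360 CPM in DMSO wells. All 8 tBHQ wells exceeded all DMSO wells (log2 fold change 0.75 ± 0.10, adjusted p = 2.84e-11). Gusb was at 202, 255 and 294 CPM in tBHQ wells, against 124, 161 and 181 CPM in DMSO wells, again without overlap (log2 fold change 0.68 ± 0.15, adjusted p = 7.06e-05). Glb1 was at 33.2, 46.9 and 63.7 CPM in tBHQ wells, against 11.1, 23.5 and 46.4 CPM in DMSO wells (log2 fold change 0.85 ± 0.31, adjusted p = 0.0254). The other 7 that rose were Ctsa, Ctsl, Ctsz, Hexa, Gla, Lipa and Psap, which encodes the precursor of the saposins that present lipids to hydrolases. Psap, singled out after its values were seen for the absence of overlap, was at 984, 1110 and 1328 CPM in tBHQ wells, against 579, 708 and 942 CPM in DMSO wells (log2 fold change 0.62 ± 0.11, adjusted p = 3.49e-07). Of the membrane protein genes 2 of 4 rose, Cd63 (a tetraspanin) by 0.32 ± 0.12 and Lamp1 by 0.27 ± 0.11 on the log2 scale (adjusted p = 0.023 and 0.0479).

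The V-ATPase genes rose on both sides of the pump in tBHQ wells, 4 of 6 V0 subunits and 5 of 7 V1 subunits, with 0 lower in either part. Atp6v0c was at 263, 329 and 382 CPM in tBHQ wells, against 144, 187 and 217 CPM in DMSO wells. All 8 tBHQ wells exceeded all DMSO wells (log2 fold change 0.77 ± 0.14, adjusted p = 2.59e-06). The table also holds Atp6v0c-ps2, a pseudogene copy, and no label or header says how reads were shared between them. Atp6v0d1, of the stem that joins the rotor ring to V1, was at 44.6, 55.7 and 91.0 CPM in tBHQ wells, against 15.5, 30.8 and 58.6 CPM in DMSO wells (log2 fold change 0.87 ± 0.26, adjusted p = 0.00511). Atp6v0e rose by 0.71 ± 0.17 and Atp6v0a1 by 0.63 ± 0.20 on the log2 scale (adjusted p = 0.000271 and 0.00809). In V1, Atp6v1c1, a regulatory subunit, was at 73.1, 118 and 150 CPM in tBHQ wells, against 43.4, 70.8 and 96.7 CPM in DMSO wells (log2 fold change 0.71 ± 0.18, adjusted p = 0.000877). Atp6v1d, of the central shaft, rose by 0.68 ± 0.17 and Atp6v1b2 by 0.49 ± 0.18 (adjusted p = 0.000743 and 0.0216). Atp6v1f rose by 0.46 ± 0.15 (adjusted p = 0.0102), and Atp6v1a was the fifth V1 subunit to pass.

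Map1lc3b and Sqstm1 parted in tBHQ wells. Map1lc3b was at 136, 205 and 258 CPM in tBHQ wells, against 75.4, 103 and 130 CPM in DMSO wells. Sqstm1 was at 405, 610 and 721 CPM in tBHQ wells, against 808, 1209 and 1327 CPM in DMSO wells. Neither pair of groups overlapped, with log2 fold changes of 0.92 ± 0.16 for Map1lc3b (adjusted p = 6.28e-07) and -0.98 ± 0.16 for Sqstm1 (adjusted p = 1.42e-07). Sqstm1 is known as a target of NRF2 in mouse cells. The 6 tested genes with a CLEAR core all passed as higher, with a median log2 fold change of 0.65, and of the 28 tested genes whose windows lacked it 15 rose and 1 fell, with a median of 0.37. In DMSO against NoStim wells 0 of those 6 rose and 3 fell, with medians of -0.30 with the core and -0.34 without it. The calls of Neu1, Ctsd, Gusb, Atp6v0c, Atp6v0e, Map1lc3b and Sqstm1 were made on each plate alone, where 11 genes passed on plate 1 and 15 on plate 2. Those of Glb1, Lamp1, Cd63, Atp6v0d1, Atp6v0a1, Atp6v1b2 and Atp6v1f were lost when 1 of the well letters was left out, and with same-named wells summed those of Glb1, Lamp1, Cd63, Atp6v1b2 and Atp6v1f were lost.

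**Figure D3:**
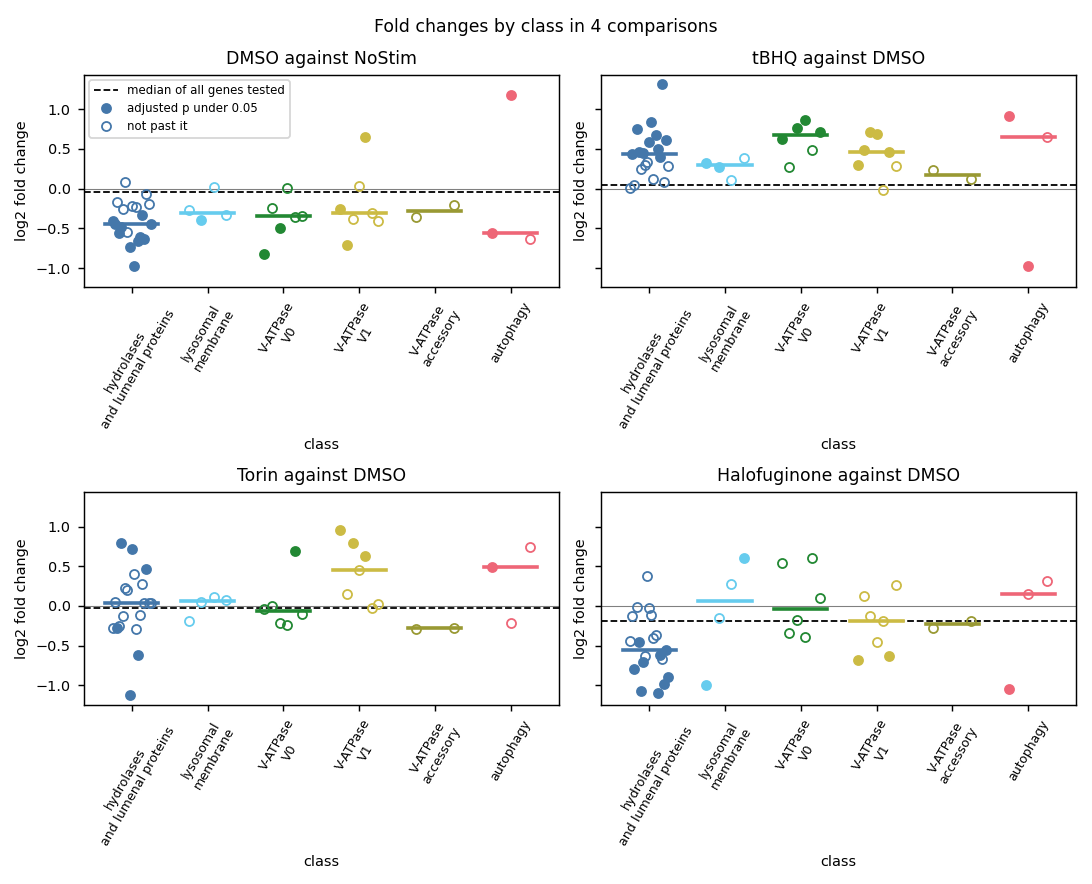
Log2 fold change (vertical) of each tested gene by class (across) in 4 comparisons; filled points passed adjusted p under 0.05, short lines are class medians and the dashed line is the median of all genes tested. In Torin wells the V1 class has a median of 0.456 and the V0 class one of -0.066, against -0.022 for all genes; in tBHQ wells the medians are 0.432 for hydrolases, 0.671 for V0 and 0.459 for V1, against 0.044 for all genes.

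Set against NoStim wells, tBHQ wells with LPS had 6 of the 41 genes higher (14.6%) and 0 lower. Over all tested genes 4.76% rose and 3.55% fell. The median log2 fold change was 0.02 over the 41 genes, against 0.03 over all genes tested. Among the hydrolases Neu1 was at 59.8, 82.9 and 120 CPM in tBHQ wells, against 19.5, 49.2 and 103 CPM in NoStim wells (log2 fold change 0.68 ± 0.22, adjusted p = 0.0335). Ctsz, a carboxypeptidase, rose by 0.53 ± 0.13 and Psap by 0.42 ± 0.10 on the log2 scale (adjusted p = 0.00148 and 0.0022). In the V-ATPase, Atp6v0d1 was at 44.6, 55.7 and 91.0 CPM in tBHQ wells, against 23.8, 35.6 and 42.9 CPM in NoStim wells, without overlap (log2 fold change 0.88 ± 0.26, adjusted p = 0.0133). Wells of the other 40 genes overlapped, where 2.18% of all tested genes did not. Atp6v1d rose by 0.72 ± 0.17 and Atp6v1e1 by 0.63 ± 0.16 (adjusted p = 0.00142 and 0.00424). The calls of Neu1 and Atp6v0d1 were lost when 1 of several well letters was left out, that of Neu1 also with same-named wells summed, and on each plate alone 1 gene passed. These groups differ in well letters too. A p that misses the threshold does not show that the levels were alike.

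With Torin before LPS, the V1 subunits Atp6v1a, Atp6v1c1 and Atp6v1e1 rose, while hydrolases went both ways. Of the 41 genes, 8 rose and 3 fell relative to DMSO wells, where 9.61% of all tested genes rose and 7.11% fell. The median log2 fold change was 0.04 over the 41 genes and -0.02 over all genes tested. By class, 3 of 7 V1 subunits rose and 0 fell, 1 of 6 V0 subunits rose and 0 fell, 3 of 19 hydrolases rose and 3 fell, and 0 of 4 membrane protein genes passed. Wells did not overlap for 2 genes, both above, against 4.86% of all tested genes.

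Atp6v1a, the catalytic V1 subunit, was at 1906, 2033 and 2438 CPM in Torin wells, against 929, 1088 and 1235 CPM in DMSO wells. All 8 Torin wells exceeded all DMSO wells, with a log2 fold change of 0.95 ± 0.10 (adjusted p = 5.32e-14). Atp6v1c1 was at 71.5, 132 and 142 CPM in Torin wells, against 43.4, 70.8 and 96.7 CPM in DMSO wells (log2 fold change 0.79 ± 0.19, adjusted p = 0.000727). Atp6v1e1 was at 149, 215 and 267 CPM in Torin wells, against 108, 133 and 209 CPM in DMSO wells (log2 fold change 0.62 ± 0.16, adjusted p = 0.00139). For both subunits the groups overlapped. Of the V0 subunits Atp6v0d2, the counterpart of Atp6v0d1 that is known from osteoclasts and macrophages, was at 40.0, 75.3 and 80.7 CPM in Torin wells, against 29.6, 39.6 and 75.4 CPM in DMSO wells (log2 fold change 0.69 ± 0.25, adjusted p = 0.0455). DMSO well H of plate 2 alone reached the Torin median.

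Ctsl, a cysteine protease, was at 878, 1174 and 1274 CPM in Torin wells, against 485, 632 and 789 CPM in DMSO wells. All 8 Torin wells exceeded all DMSO wells (log2 fold change 0.79 ± 0.11, adjusted p = 8.2e-09). Gla was at 60.5, 113 and 163 CPM in Torin wells, against 43.4, 65.5 and 89.0 CPM in DMSO wells (log2 fold change 0.72 ± 0.22, adjusted p = 0.011). Npc2, which binds cholesterol in the lumen, was the third hydrolase-class gene to rise. Gusb was at 55.0, 91.9 and 193 CPM in Torin wells, against 124, 161 and 181 CPM in DMSO wells (log2 fold change -0.61 ± 0.17, adjusted p = 0.00382). In 6 of 8 Torin wells it was below every DMSO well, and 1 Torin well was above them all. Galc, with only 21 counts over the 8 Torin wells, fell by 1.12 ± 0.40 on the log2 scale (adjusted p = 0.0379), and Ctsb, a cysteine protease, was the third that fell. Map1lc3b was at 85.2, 147 and 197 CPM in Torin wells, against 75.4, 103 and 130 CPM in DMSO wells (log2 fold change 0.49 ± 0.17, adjusted p = 0.0313). Sqstm1 and Uvrag did not pass, with Uvrag at a log2 fold change of 0.74 ± 0.35 (adjusted p = 0.143). Without well letter F, G or H the count of calls was 6, 6 and 7, and the calls of Galc, Gla, Gusb, Atp6v0d2, Atp6v1e1 and Map1lc3b were each lost without at least 1 letter, that of Atp6v0d2 also with same-named wells summed. Those of Atp6v1a and Ctsl were made on each plate alone. Of the 6 tested genes with a CLEAR core 2 rose in Torin wells and 0 fell, with a median log2 fold change of -0.02, against 0.03 for the 28 without it.

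Torin and tBHQ both raised some of these genes, so their wells were compared directly. Torin wells had lower hydrolase and V0 transcripts than tBHQ wells and higher Sqstm1, Atp6v1a and Atp6v1e1. Of the 41 genes, 5 were higher and 18 lower in Torin wells, where 20% of all tested genes were higher and 18.3% lower. The median log2 fold change, Torin over tBHQ, was -0.33 over the 41 genes and 0.00 over all genes tested. With RLE scaling the median of all genes moved to -0.15, higher genes made up 39.3% of all calls, against 52.2% with TMM, and the median of the 41 relative to all genes was -0.33 under both scalings. By class, 2 of 19 hydrolases were higher and 10 lower, 0 of 6 V0 subunits were higher and 4 lower, and 2 of 7 V1 subunits were higher and 1 lower. Wells did not overlap for 1 gene above and 5 below, against 11.5% of all tested genes.

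The hydrolases furthest below were Galc, Gusb and Neu1. Gusb was at 55.0, 91.9 and 193 CPM in Torin wells, against 202, 255 and 294 CPM in tBHQ wells, without overlap (log2 fold change -1.29 ± 0.16, adjusted p = 6.42e-12). Neu1 was at 7.1, 34.5 and 71.3 CPM in Torin wells, against 59.8, 82.9 and 120 CPM in tBHQ wells (log2 fold change -1.28 ± 0.25, adjusted p = 8.75e-06). Galc fell by 1.45 ± 0.38 on the log2 scale (adjusted p = 0.00111). Of the membrane protein genes Cd63 was lower by a log2 fold change of -0.52 ± 0.12 (adjusted p = 0.000243). The V0 subunits had a median log2 fold change of -0.736 and the V1 subunits one of -0.227, against 0.001 for all genes tested. Only 2 V1 subunits, Atp6v1a and Atp6v1e1, passed as higher. Atp6v0c was at 132, 159 and 193 CPM in Torin wells, against 263, 329 and 382 CPM in tBHQ wells, without overlap (log2 fold change -0.97 ± 0.15, adjusted p = 1.2e-08). Atp6v0d1 and Atp6v0e had log2 fold changes of -1.11 ± 0.28 and -0.81 ± 0.17 (adjusted p = 0.000704 and 5.64e-05). Atp6v1a was at 1906, 2033 and 2438 CPM in Torin wells, against 1090, 1270 and 1624 CPM in tBHQ wells, without overlap in the other direction (log2 fold change 0.65 ± 0.10, adjusted p = 3.72e-08). Atp6v1e1 had a log2 fold change of 0.65 ± 0.16 and Atp6v1f one of -0.48 ± 0.16 (adjusted p = 0.000333 and 0.00876). The accessory gene Atp6ap1 was lower by -0.52 ± 0.18 (adjusted p = 0.0168).

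Sqstm1 was at 720, 996 and 1254 CPM in Torin wells, against 405, 610 and 721 CPM in tBHQ wells (log2 fold change 0.76 ± 0.16, adjusted p = 3.53e-05). In 7 of 8 Torin wells it exceeded every tBHQ well. Map1lc3b was lower, with a log2 fold change of -0.43 ± 0.16 (adjusted p = 0.0214). The calls of Map1lc3b, Atp6ap1 and Atp6v1f were lost when 1 of the well letters was left out and also when same-named wells of both plates were summed. On plate 1 alone 12 genes passed and on plate 2 alone 15.

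**Figure D4:**
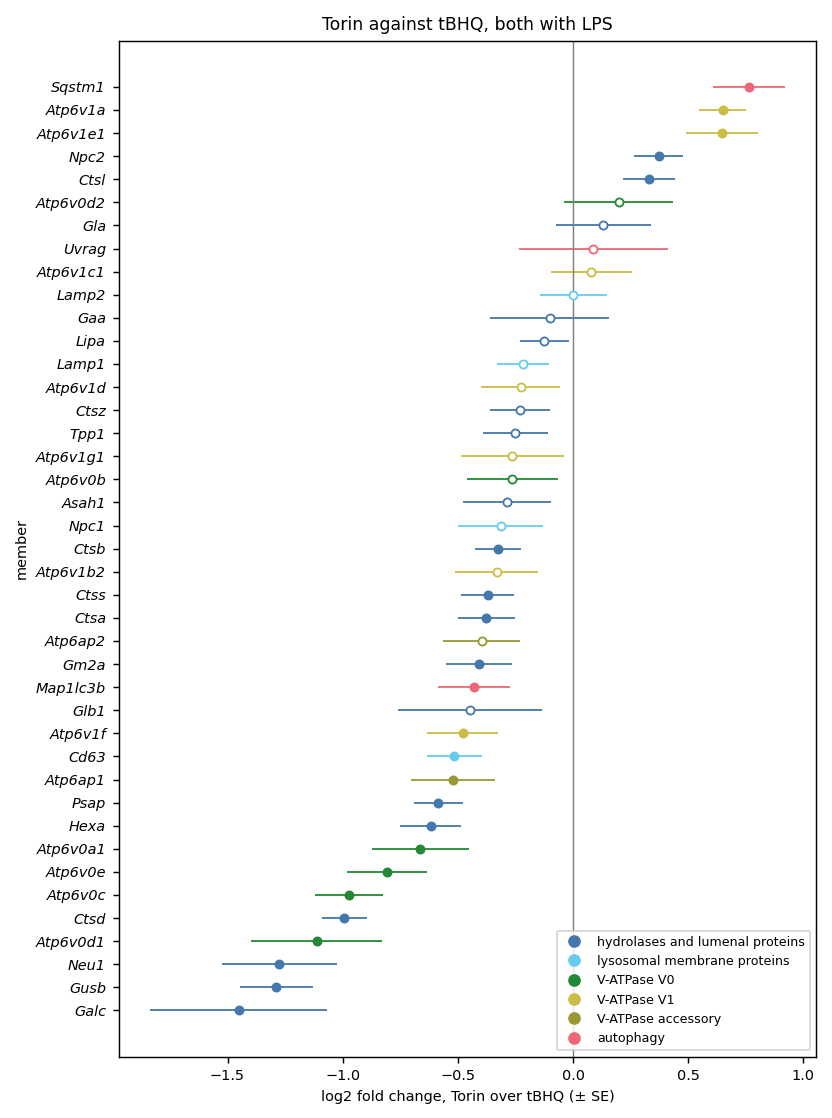
Log2 fold change, Torin over tBHQ (horizontal, ± SE), of the 41 tested genes (down), coloured by class; filled points passed adjusted p under 0.05. Galc lies lowest (-1.452) and Sqstm1 highest (0.763), and the 4 V0 subunits that passed all lie left of 0.

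Halofuginone, an inhibitor of prolyl-tRNA synthetase, went with lower hydrolase transcripts. Its libraries also stood apart, with totals of 80196 to 136526 counts, against 201162 to 323049 in DMSO libraries, and with Rn45s, the ribosomal RNA precursor, at 39.0% to 49.1% of counts, against 9.43% to 23.7% in DMSO libraries. Of the 41 genes, 1 rose and 13 fell relative to DMSO wells, where 15.3% of all tested genes rose and 25% fell. The median log2 fold change was -0.33 over the 41 genes, against -0.20 over all genes tested, a difference of -0.14. Of the hydrolases 0 of 19 rose and 9 fell, of the V1 subunits 0 of 7 rose and 2 fell, and 0 of 6 V0 subunits passed. With the Rn45s share as a covariate 3 genes passed in place of 14. The median of the genes then lay 0.30 above that of all genes (0.01 against -0.29). Calls fell over all genes tested too, to 211 higher and 607 lower, against 760 and 1240 without the covariate. In wells of the other groups Rn45s reached at most 30.9% of counts, below every Halofuginone well. This fit therefore cannot tell the compound and the Rn45s share apart. With no filter on low counts, which brings in all 44 genes, 0 were higher and 19 lower. Their median then lay at -0.56 relative to all genes. What part depth and Rn45s had in these calls was not tested.

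Ctss, a cysteine protease of antigen processing, was at 309, 432 and 722 CPM in Halofuginone wells, against 797, 927 and 1069 CPM in DMSO wells, without overlap (log2 fold change -1.07 ± 0.13, adjusted p = 1.57e-11). Hexa, a hexosaminidase subunit, was at 34.1, 145 and 227 CPM in Halofuginone wells, against 202, 302 and 404 CPM in DMSO wells (log2 fold change -1.09 ± 0.18, adjusted p = 1.62e-07). Npc2 was at 155, 302 and 407 CPM in Halofuginone wells, against 506, 595 and 680 CPM in DMSO wells, without overlap (log2 fold change -0.98 ± 0.13, adjusted p = 2.4e-10). Ctsb was the third gene without overlap, all 3 being below DMSO wells, against 10.8% of all tested genes in either direction. Cd63 fell by 0.99 ± 0.15 and Atp6v1a by 0.68 ± 0.12 on the log2 scale (adjusted p = 1.37e-08 and 4.92e-07). Atp6v1f fell by 0.63 ± 0.22 (adjusted p = 0.0145) and Map1lc3b by 1.04 ± 0.27 (adjusted p = 0.00069). The median of Map1lc3b there lay near 45.4 CPM, which stood for 3 counts in a median Halofuginone library. Npc1, the membrane partner of Npc2 in cholesterol export, was the gene that rose, at 76.8, 142 and 206 CPM in Halofuginone wells, against 63.1, 94.1 and 104 CPM in DMSO wells (log2 fold change 0.60 ± 0.22, adjusted p = 0.0238). With the Rn45s share as a covariate its log2 fold change was -0.34 (adjusted p = 0.475), and its call and that of Atp6v1f were lost when 1 of the well letters was left out. Among Hexa, Ctss, Npc2, Cd63, Npc1, Atp6v1a, Atp6v1f and Map1lc3b, the call of Npc2 alone held with that covariate. As the fit with it cannot tell the compound and Rn45s apart, it does not decide between them for any of these genes.

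In BrefA wells Atp6v1a rose, with few other genes of the list. Relative to DMSO wells 3 of the 41 genes rose and 2 fell, where 8.08% of all tested genes rose and 9.25% fell. Atp6v1a was at 1257, 1554 and 1804 CPM in BrefA wells, against 929, 1088 and 1235 CPM in DMSO wells. All 8 BrefA wells exceeded all DMSO wells (log2 fold change 0.52 ± 0.10, adjusted p = 2.49e-05), and it was the 1 gene without overlap, against 6.17% of all tested genes. Ctsl rose by 0.39 ± 0.11 and Uvrag by 0.94 ± 0.33 on the log2 scale (adjusted p = 0.00726 and 0.0336). Gm2a, the activator protein of GM2 ganglioside breakdown, fell by 0.50 ± 0.14 and Lipa, the acid lipase, by 0.36 ± 0.11 (adjusted p = 0.00643 and 0.0112). Without well letter E, G or H 2 genes passed, the call of Uvrag was also lost with same-named wells summed, and the call of Atp6v1a held on each plate alone. In Tunicamycin wells 0 genes passed in either direction at adjusted p under 0.05 with edgeR, where 2.8% of all tested genes rose and 1.57% fell. At an unadjusted p under 0.05 there were 10 of the 41, against 909 of all 4963 genes tested. DESeq2 also called 0 of the 41. Without well F of plate 2, which earlier results put apart, 2 passed. Tunicamycin blocks protein N-glycosylation.

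Set against BrefA wells directly, Tunicamycin wells had lower Atp6v1a and Uvrag. Of the 41 genes, 2 were higher and 4 lower in Tunicamycin wells, where 9.93% of all tested genes were higher and 6.99% lower. Atp6v1a was at 901, 1079 and 1280 CPM in Tunicamycin wells, against 1257, 1554 and 1804 CPM in BrefA wells (log2 fold change -0.48 ± 0.10, adjusted p = 0.000111). In 7 of 8 Tunicamycin wells it was below every BrefA well. Uvrag had a log2 fold change of -1.10 ± 0.34 (adjusted p = 0.0117), Npc1 one of -0.61 ± 0.19 (adjusted p = 0.0138) and Atp6v1d one of -0.60 ± 0.19 (adjusted p = 0.0156). Ctss and Atp6v0c were higher, by 0.43 ± 0.11 and 0.44 ± 0.15 on the log2 scale (adjusted p = 0.00301 and 0.0242). Without well letter G 3 genes passed, and wells overlapped for all 41, where 2.16% of all tested genes did not. Without 3 wells of these groups, a fit chosen after seeing the data, 3 genes were higher and 3 lower. In that fit 8 of 11 named calls of comparisons with BrefA or Tunicamycin wells held.

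The remaining compounds moved few of these genes. In Dexa wells 1 of the 41 genes rose and 1 fell, where 1.95% of all tested genes rose and 1.61% fell. Sqstm1 was at 416, 664 and 828 CPM in Dexa wells, against 808, 1209 and 1327 CPM in DMSO wells, and was below every DMSO well in 7 of 8 (log2 fold change -0.81 ± 0.15, adjusted p = 9.09e-05). Uvrag was at 15.6, 46.0 and 65.4 CPM in Dexa wells, against 3.5, 20.2 and 34.7 CPM in DMSO wells (log2 fold change 1.07 ± 0.32, adjusted p = 0.0343), a call that was lost without well letter F, G or H and with same-named wells summed, which left 1 gene. In pGE2 wells 1 gene rose and 2 fell, where 5.2% of all tested genes rose and 5.98% fell. Map1lc3b was at 133, 165 and 225 CPM in pGE2 wells, against 75.4, 103 and 130 CPM in DMSO wells, without overlap (log2 fold change 0.69 ± 0.16, adjusted p = 0.000733). It was the 1 gene of the 41 without overlap, against 4.57% of all tested genes. Atp6v0a1 fell by 0.66 ± 0.23 and Atp6v1b2 by 0.57 ± 0.19 on the log2 scale (adjusted p = 0.0384 and 0.0352), and both calls were lost with RLE scaling and without well letter F, G or H. Without F or H 1 gene passed and without G 2, and that of Atp6v1b2 was also lost with same-named wells summed.

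In Caspase-1 wells 3 genes rose and 1 fell, where 1.39% of all tested genes rose and 1.51% fell, and with RLE scaling higher genes made up 59.3% of all calls, against 47.9% with TMM. Atp6v0e was at 192, 228 and 540 CPM in Caspase-1 wells, against 126, 147 and 243 CPM in DMSO wells (log2 fold change 0.86 ± 0.17, adjusted p = 0.000527). In 2 of the 8 Caspase-1 wells it exceeded every DMSO well. Ctss was at 1104, 1289 and 1414 CPM in Caspase-1 wells, against 797, 927 and 1069 CPM in DMSO wells, without overlap (log2 fold change 0.42 ± 0.11, adjusted p = 0.0238). It was the 1 gene of the 41 without overlap, against 0.484% of all tested genes. Ctsl rose by 0.40 ± 0.11 and Lipa fell by 0.42 ± 0.11 on the log2 scale (adjusted p = 0.0347 and 0.0213). Each of the 4 calls was lost without at least 1 well letter, those of Ctss, Ctsl and Lipa also with same-named wells summed, and 1 or 2 genes passed without letter E, F, G or H. In Baflo wells 0 genes passed in either direction with edgeR, where 0% of all tested genes rose and 0% fell. An unadjusted p under 0.05 was reached by 5 of the 41, against 373 of all 4963 genes tested. In ZVAD wells, a caspase inhibitor, 0 passed, where 0% of all tested genes rose and 0% fell. An unadjusted p under 0.05 was reached by 2 of the 41, against 176 of all 4963 genes tested. DESeq2 also called 0 of the 41 in both.

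Over the 12 groups, the median level of Sqstm1 was 609.8 CPM in tBHQ wells, 664.1 CPM in Dexa wells and 461.5 CPM in NoStim wells, and between 967.8 and 1253 CPM in the other 9 groups. Map1lc3b had its lowest median in Halofuginone wells, 52.69 CPM, and its highest in tBHQ wells, 205.2 CPM. In a median Halofuginone library 3 counts came to 45.4 CPM, so that lowest median rests on few counts. Uvrag medians lay between 16.28 CPM in Baflo wells and 46.03 CPM in Dexa wells, with neighbours in that order overlapping widely. Wipi1, not tested, had a median of 5 counts in tBHQ wells (1 to 10), 0.5 counts in DMSO wells (0 to 3) and 4 counts in NoStim wells (1 to 12). The alternative subunits Atp6v0d1 and Atp6v0d2 stood highest in different groups, Atp6v0d1 in tBHQ wells (median 55.73 CPM) and Atp6v0d2 in Torin wells (median 75.27 CPM). In Torin wells Atp6v0d1 had a median of 21.54 CPM, against 30.84 CPM in DMSO wells, and in tBHQ wells Atp6v0d2 had a log2 fold change of 0.49 ± 0.25 (adjusted p = 0.114). Mcoln1 had 2 to 5 counts per well in tBHQ wells, 2 to 7 in DMSO wells and 3 to 15 in NoStim wells. Atp6v1h had 2 to 9 counts in tBHQ wells, 2 to 8 in DMSO wells and 2 to 9 in NoStim wells. For 8 of the 44 genes (Atp6v1e1, Ctsa, Ctsb, Ctsz, Lamp1, Map1lc3b, Npc1 and Sqstm1) the last 500 bases overlap an exon of a gene on the other strand. No label or header says whether counting used strand, so reads of such pairs cannot be told apart.

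Other genes of the pathway were looked at in 5 further lists, each set beside the share of all tested genes. In tBHQ against DMSO wells, where 17.3% of all tested genes rose and 19.1% fell, 7 of 19 other lysosomal enzymes rose (36.8%) and 3 fell (15.8%), and 5 of 15 other membrane proteins rose (33.3%) and 3 fell (20%). Of the other autophagy genes 11 of 21 rose (52.4%) and 2 fell (9.52%), and of the regulators 8 of 15 rose (53.3%) and 2 fell (13.3%). Of the 2 other V-ATPase subunits 0 rose and 1 fell. Plekhm1, which tethers late endosomes for fusion, had a log2 fold change of 2.67 ± 0.44 (adjusted p = 1.62e-07), and Flcn, folliculin, which acts on the Rag GTPases, one of 2.71 ± 0.37 (adjusted p = 2.7e-10). Tcirg1, the alternative to Atp6v0a1, fell by 0.68 ± 0.18 (adjusted p = 0.00091) while Atp6v0a1 rose.

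In DMSO against NoStim wells, where 19.5% of all tested genes rose and 16.6% fell, 2 of 19 enzymes rose (10.5%) and 9 fell (47.4%), and 2 of 21 autophagy genes rose (9.52%) and 8 fell (38.1%). Of the membrane proteins 2 of 15 rose (13.3%) and 3 fell (20%), and of the regulators 3 of 15 rose (20%) and 4 fell (26.7%), shares near those of all genes. Plekhm1 stood at -2.82 ± 0.43 and Atg7, of the conjugation that lipidates LC3, at -1.46 ± 0.24 on the log2 scale (adjusted p = 1.01e-08 and 9.21e-08). The regulators with the largest changes were Tfec and Mitf, relatives of TFEB, which rose by 1.39 ± 0.24 and 0.94 ± 0.18 (adjusted p = 4.74e-07 and 1.07e-05), and Flcn, which fell by 1.12 ± 0.43 (adjusted p = 0.0323). Of the 2 other V-ATPase subunits Tcirg1 rose, by 0.54 ± 0.17 (adjusted p = 0.0074). In Torin against DMSO wells 9.61% of all tested genes rose and 7.11% fell. There 1 of 19 enzymes rose (5.26%) and 1 fell (5.26%), shares near those of all genes. Of the autophagy genes 6 of 21 rose (28.6%) and 0 fell, of the regulators 4 of 15 rose (26.7%) and 1 fell (6.67%), and of the membrane proteins 3 of 15 rose (20%) and 1 fell (6.67%). Clcn7, the lysosomal chloride exchanger, rose by 1.09 ± 0.18 and Pla2g15, a lysosomal phospholipase, by 1.30 ± 0.34 in Torin wells (adjusted p = 6.45e-07 and 0.00283). Larger rises there were those of Plekhm1 by 2.305 ± 0.478 and Flcn by 1.80 ± 0.42 (adjusted p = 7.92e-05 and 0.000616). The folliculin partners Fnip1 and Fnip2 rose by 2.28 ± 0.22 and 2.19 ± 0.16 (adjusted p = 2.33e-17 and 1.34e-25).

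Halofuginone wells showed shares near those of all genes in most lists, where 15.3% of all tested genes rose and 25% fell relative to DMSO wells. Of 19 enzymes 4 rose (21.1%) and 4 fell (21.1%), of 15 membrane proteins 3 rose (20%) and 5 fell (33.3%), of 21 autophagy genes 4 rose (19%) and 4 fell (19%), and of 15 regulators 5 rose (33.3%) and 2 fell (13.3%). The membrane proteins with the largest changes were Tmem192 at -1.49 ± 0.60, Slc11a1, a metal transporter of phagosomes, at -1.35 ± 0.39, and Cd68, a macrophage lysosomal glycoprotein, at 1.29 ± 0.30 (adjusted p = 0.0367, 0.00287 and 0.000224). Creg1, a lumenal glycoprotein, led the enzymes at -1.34 ± 0.15 (adjusted p = 2.08e-14). The depth and Rn45s share of these libraries, given above, go with these values too. In BrefA against DMSO wells, where 8.08% of all tested genes rose and 9.25% fell, 0 of 19 enzymes rose and 1 fell (5.26%), 2 of 15 membrane proteins rose (13.3%) and 1 fell (6.67%), 2 of 21 autophagy genes rose (9.52%) and 2 fell (9.52%), and 2 of 15 regulators rose (13.3%) and 0 fell. These shares lie near those of all genes. Fnip1, a partner of folliculin, rose by 1.64 ± 0.22 in BrefA wells (adjusted p = 3.17e-10). Relative to DMSO wells it also rose by 2.28 ± 0.22 in Torin wells and 1.76 ± 0.22 in tBHQ wells (adjusted p = 2.33e-17 and 5.88e-12). It had a log2 fold change of -1.24 ± 0.21 in Tunicamycin wells set against BrefA wells (adjusted p = 6.83e-07). In Torin wells set directly against tBHQ wells, where 20% of all tested genes were higher and 18.3% lower, 2 of 19 enzymes were higher (10.5%) and 7 lower (36.8%), and 4 of 15 regulators were higher (26.7%) and 5 lower (33.3%). Of the membrane proteins 3 of 15 were higher (20%) and 5 lower (33.3%), and of the autophagy genes 3 of 21 were higher (14.3%) and 4 lower (19%). Lamtor1, of the complex that anchors mTORC1, stood at -2.16 ± 0.27 and Tfe3 at -1.51 ± 0.31 (adjusted p = 4.94e-12 and 2.07e-05), and Clcn7 at 1.03 ± 0.18 (adjusted p = 5.86e-07).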

How the data were processed

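The authors deposited counts of reads per gene symbol for 96 libraries of transcript 3′ ends (modified SCRB-Seq and Nextera, per the labels), aligned with BWA to mm10 per the submitters' processing notes. No label or header gives the version of BWA, the gene annotation, the use of strand or whether PCR copies were collapsed. Counts were checked to be whole, with another total in each library (80196 to 379198). Shallower libraries, as in Halofuginone wells, give wider errors, and limits of detection cover counting error only.

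The 44 genes, the further lists and the comparisons were chosen with earlier results of these data known. Tests used edgeR 4.0.16 in R 4.3.3. Library sizes were totals over all genes scaled by TMM, genes were kept by filterByExpr, and all 96 libraries were fitted together, with terms for group and plate. Each comparison took two-sided, robust quasi-likelihood F tests, and p-values of its 4963 genes were adjusted by Benjamini-Hochberg. The threshold was an adjusted p of 0.05. Errors of log2 fold changes are standard errors. The procedure was checked on simulated data. Values are given for up to 4 passing genes per class with the largest change in the DMSO against NoStim, Torin and tBHQ comparisons, up to 3 elsewhere and in each further list, for Atp6v0d1, Atp6v0d2 and the autophagy genes, and for genes singled out after their values were seen.

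Well letters are shared by groups and plates. Deviations of wells with the same plate and letter in different groups had a mean correlation of 0.067. Wells of another letter and group on the same plate had one of -0.0175. In 15 of 55 pairs of groups the mean was over 0.1, and in 0 of 55 was every correlation over 0.1. Letters were not taken as pairs in the main fit, but these values do not exclude a weak pairing. Letters shared by both plates of 1 group correlated more (mean 0.227), and the labels do not say whether such wells share a lysate, in which case n is 4 and not 8 per group. A fit with those wells summed was therefore an alternative, and 19 of 84 named calls were lost in it. Others were RLE scaling, DESeq2 1.42.0, 2 further filters, no plate term, each plate alone, a replicate block, the compared groups alone, the Rn45s share as a covariate, Rn45s and Lars2 left out, and each letter left out. Chosen after seeing the data were library sizes of the tested genes and a fit without 3 wells. The log2 fold changes were fitted from deposited counts. Positions are from GENCODE and promoters from RefSeq, and figures were drawn with matplotlib 3.10.9.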

Additional observations from a re-analysis of the deposited data

Results flagged for a closer look

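In 10 of 116 gene and group pairs looked at, 1 well stood far from its 7 neighbours. Chance alone flags about 1 in 20 groups. Each value is in CPM, with the nearest other well of its group after it. Atp6v0c was at 317.1 in BrefA well H of plate 2 (nearest 202.5), and Ctsl at 1289 in the same well (nearest 966.3). Atp6v0d2 was at 75.39 in DMSO well H of plate 2 (nearest 42.6), and Atp6v1e1 at 208.9 in DMSO well G of plate 1 (nearest 154.3). Neu1 was at 63.9 in DMSO well E of plate 1 (nearest 38.95). Among Torin wells, Atp6v0e was at 241.3 in well H of plate 1 (nearest 158.6), Atp6v1f at 214.4 in well E of plate 1 (nearest 148.8) and Atp6v1a at 2438 in well G of plate 2 (nearest 2143). Among NoStim wells, Atp6v1b2 was at 193.2 in well B of plate 1 (nearest 145.1) and Sqstm1 at 867.9 in well D of plate 2 (nearest 578.1).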

How the results depend on the processing

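Counts of genes past the threshold are given as higher and lower together. With RLE scaling the 19 of DMSO against NoStim became 32 and the 3 of pGE2 became 1. DESeq2 gave 33 for DMSO against NoStim. Without a filter there were 12 for DMSO against NoStim, 7 for Torin, 15 for tBHQ, 1 for pGE2, 2 for Caspase-1 and 3 for Tunicamycin against BrefA. On plate 1 alone there were 1 for Dexa, 2 for Torin, 11 for tBHQ, 1 for pGE2, 2 for Caspase-1, 1 for BrefA, 2 for Tunicamycin, 1 for tBHQ against NoStim and 12 for Torin against tBHQ. On plate 2 alone there were 4 for DMSO against NoStim, 0 for Dexa, 5 for Torin, 15 for tBHQ, 0 for pGE2, 0 for Caspase-1, 1 for tBHQ against NoStim, 15 for Torin against tBHQ and 3 for Tunicamycin against BrefA. Summing same-named wells gave 1 for Dexa and 1 for Caspase-1. Fitting the compared groups alone gave 1 for Dexa and 5 for pGE2, and no plate term gave 2 for Caspase-1. The Rn45s share as a covariate gave 2 for Caspase-1 and 3 for Halofuginone. It also turned the log2 fold change of Npc1 in Halofuginone wells to -0.34. Every Halofuginone well had a higher Rn45s share than any well of another group. For Halofuginone that fit therefore cannot tell the compound and Rn45s apart. With a replicate block Tunicamycin had 1, and 66 of 66 named calls held, so the block ended no call; it could not be fitted for comparisons with NoStim, whose letters differ. Library sizes of the tested genes gave 1 for Tunicamycin, and leaving out 3 wells gave 1 for Tunicamycin and 3 for BrefA. Leaving out each well letter on both plates, or well F of plate 2 for Tunicamycin, gave 1 to 2 for Dexa, 6 to 8 for Torin, 1 to 2 for pGE2, 1 to 2 for Caspase-1, 2 to 5 for BrefA, 0 to 2 for Tunicamycin and 3 to 6 for Tunicamycin against BrefA. Fewer wells enter those fits and the plate fits. For the other alternatives the cause was not tested. Of 84 named calls, 82 held with RLE scaling, 83 with DESeq2, 57 without a filter, 84 with a filter at 20 CPM, 65 with wells summed and 72 with the Rn45s share, and 1 was turned round. Depth limits genes under about 45.4 CPM in Halofuginone wells and 11.4 CPM in DMSO wells, where 3 counts or fewer stood behind a value.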
